A study of Mus musculus with 8 samples.

Results

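The complement genes described here are 9 genes that start, restrain or sense the cascade rather than form its main chain. They were chosen by name and are Serping1, Cfi, Cr1l, Cd55, Cd59a, C3ar1, C5ar1, Cfb and Masp2. Their probes numbered 12 of the 39429 probes on the array, and the genes 9 of the 19751 that could be given a symbol. Of these genes 7 had 1 probe, Serping1 had 2 and Masp2 had 3. Cfb is an activating protease and no regulator, receptor or MASP, and it is kept in the group because the list names it.

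RNA came from the whole hippocampus, dissected by hand, of untreated wild type C57BL/6J mice, kept in their home cage. The young group (3M) held 4 samples at 3 months of age and the aged group (29M) held 4 samples at 29 months. Each sample was measured on 1 single-colour array, where the brightness of a probe follows the abundance of its transcript, and the question was which of these genes differ in level between the age groups. The sources used here do not give the sex of the mice. Per the study's methods its oldest mice were bought at an advanced age and then kept in the study's own rooms, and their age is given as a range of months, so that 29 months is the labelled age of the group.

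Complement is a set of plasma and membrane proteins that tag targets and cells for removal. The classical pathway begins with C1q and the lectin pathway with sugar-binding lectins and their proteases (the MASPs). The alternative pathway uses factor B, and all of these pathways meet at the cleavage of C3. Inhibitors in the fluid phase and on cell membranes hold the cascade in check, and small fragments released on the way, C3a and C5a, act on receptors of immune cells. In the brain much of the complement is made locally by microglia and astrocytes, and it takes part in the removal of synapses.

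The groups lay on 3 slides that each held both ages. Slide 1 held replicate 1 of 3M and replicates 3 and 4 of 29M, and slide 2 held replicate 2 of each age. Slide 3 held replicates 3 and 4 of 3M and replicate 1 of 29M. A difference within a slide therefore rests on a single array of at least 1 age. All 7 markers of hippocampal principal cells and all 10 neuron markers were well above background on every array. The share of spots well above background was 76.2% to 85.0%, and saturation was absent. The extraction software marked 1 array for evaluation, replicate 1 of 3M, which had the lowest of these shares. Replicate 1 of 3M and replicate 4 of 29M, which both lay on slide 1, were the arrays nearest to the other age in microglial genes. The score of 15 microglia markers, which is the mean over markers of the deviation from the mean of all 8 arrays on the log2 scale, was 0.01 in replicate 1 of 3M, against -0.30 to -0.13 in the other 3M arrays. It was -0.05 in replicate 4 of 29M, against 0.19 to 0.25 in the other 29M arrays. These gaps were 0.43 and 0.78 of the range of their group, short of the 95% critical value of Dixon's test for 4 values. Values below are given with and without these arrays where they matter, a choice made after the values were seen.

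Masp2 was the only member whose change passed the test, and it was lower in 29M. Its promoter is shown as the start site of that gene, and that of Cr1l as the start site of a member whose difference was close to 0. Both sequences are from RefSeq (GRCm38.p6), run 5′ to 3′ from 250 bases before to 50 bases after the transcription start, and have each CG dinucleotide in capitals. RefSeq places the Masp2 start shown inside the annotated span of the gene. The promoter of Masp2 lies on the plus strand at chr4:148602294-148602593 and that of Cr1l on the minus strand at chr1:195131521-195131820.
Masp2: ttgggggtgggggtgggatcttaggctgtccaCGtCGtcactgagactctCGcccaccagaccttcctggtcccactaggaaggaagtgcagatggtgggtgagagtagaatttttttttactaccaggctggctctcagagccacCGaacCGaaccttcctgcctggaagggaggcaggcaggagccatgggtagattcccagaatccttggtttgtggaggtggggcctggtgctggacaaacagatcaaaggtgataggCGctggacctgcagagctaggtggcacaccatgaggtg
Cr1l: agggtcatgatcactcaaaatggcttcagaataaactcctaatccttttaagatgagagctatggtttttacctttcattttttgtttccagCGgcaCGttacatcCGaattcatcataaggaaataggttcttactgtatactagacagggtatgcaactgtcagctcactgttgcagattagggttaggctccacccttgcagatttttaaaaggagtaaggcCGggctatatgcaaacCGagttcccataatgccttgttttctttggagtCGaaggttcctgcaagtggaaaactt
Both windows held 6 CG dinucleotides, where the median over 32851 promoters of the same length was 7 and 94.6% of them held at least 1 (CG reads the same on both strands). The table held a promoter for 6 of the 9 members. Cd55 had the most CG dinucleotides of these (12) and Cd59a the fewest (1). The letters TATAAA, searched on both strands, were found in the window of C3ar1 and in none of the other 5, and 13.6% of all promoters held them.

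**Figure D1:**
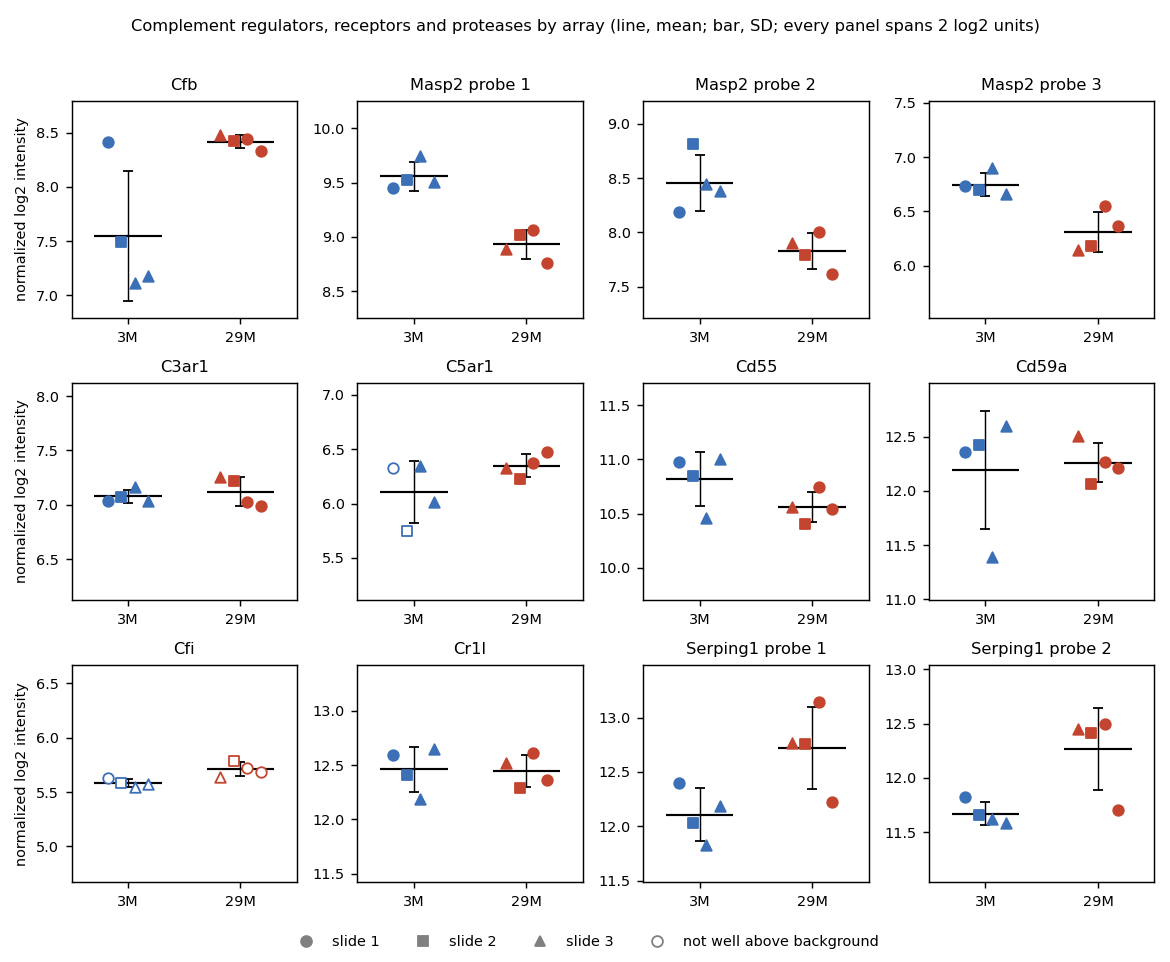
Normalized log2 intensity (y axis) of each of the 12 probes in the 3M and the 29M arrays (x axis), with 1 point per array. The line is the mean and the bar the SD of 4 arrays, the shape of a point gives its slide, and open points were not well above background. All 29M points of the 3 Masp2 probes lie below all 3M points, while in Cfb and Serping1 single arrays (8.41 in 3M for Cfb, 11.70 in 29M for the second probe of Serping1) lie on the level of the other group.

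A probe was called where limma's adjusted p was under 0.1 and the log2 change from 3M to 29M at least 0.5 in either direction (1.41-fold). Values are normalized log2 intensities, and a probe counts as well above background where the scanner software says so. Of the 12 probes, limma called 2 as lower in 29M and 0 as higher. Over all 39408 tested probes, 0.815% were called lower and 1.16% higher (1.97% in all). At an unadjusted p under 0.05, 3 member probes were higher (8.11% of all probes) and 3 were lower (8.87% of all probes), the latter all of Masp2. The arrays of 3M and 29M did not overlap for 3 member probes that were lower (5.69% of all probes) and for 1 that was higher (5.4% of all probes, and 11.1% in either direction). In tissue RNA, fewer cells of a type and less RNA per cell cannot be told apart, and this holds for each gene below. The p-values set the difference between the ages against the spread among these 4 samples per age, moderated by limma over all tested probes. The median log2 change of the 9 genes was 0.07, against 0.01 over all 19742 tested genes.

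The proteases of the group are described first. Masp2 encodes the protease that is carried by mannose-binding lectin and the ficolins and that cleaves C4 and C2 in the lectin pathway. On its brightest probe (A_55_P2185504) the normalized log2 intensity was 9.45, 9.52, 9.75 and 9.51 in replicates 1 to 4 of 3M. In 29M it was 8.89, 9.01, 9.06 and 8.76. Every aged array lay below every young one, with a gap of 0.39 between the groups, and all 8 arrays were well above background. The mean fell from 9.56 ± 0.13 (SD, n = 4) to 8.93 ± 0.14 (SD, n = 4). This is a log2 change of -0.63 (SE 0.10, 95% interval -0.85 to -0.40, limma adjusted p 0.0186), so that the young level was 1.54-fold the aged one. Among the changes of all tested probes this one stood at percentile 0.842 from the bottom.

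The other probes of Masp2 were lower as well. A_55_P1990500, matched to the same transcript, read 8.19, 8.81, 8.44 and 8.38 in 3M and 7.90, 7.79, 8.005 and 7.61 in 29M. Its log2 change was -0.63 (SE 0.14, limma adjusted p 0.0612), which passed both thresholds. The gene also encodes MAp19, a short form without the protease domain, and which transcript encodes which form was not established here. A_55_P1990505 is matched to the other transcript of the gene (NM_001003893). It read 6.73, 6.70, 6.90 and 6.66 in 3M and 6.14, 6.19, 6.55 and 6.36 in 29M. Its log2 change of -0.44 (SE 0.11, limma adjusted p 0.0815) was past the limit on p but short of the minimum fold. On this dim probe the change ran from -0.81 (processed signals with 75th percentile scaling) to -0.34, and 3 of 20 other fits called it. On all 3 probes the groups were separate. Whether the probes differ in their change was not tested. Across the 8 arrays, the probes of Masp2 correlated with r from 0.75 to 0.89, where the arrays share the age groups.

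The fall of Masp2 was seen on every slide. On the brightest probe the difference between the means of 29M and 3M was -0.54 on slide 1, -0.51 on slide 2 and -0.74 on slide 3. With slide as a fixed block the change was -0.60 (limma adjusted p 0.0617). The call held in all 20 other fits, where the change ran from -0.67 to -0.56 and the adjusted p from 0.00564 to 0.09999, the latter just under the threshold and obtained from the software's processed signals after 75th percentile scaling. The call of A_55_P1990500 held in 10 of the 20 fits and was lost, among others, with slide as a fixed block (adjusted p 0.112).

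The neighbours of Masp2 in RefSeq showed no call. Tardbp, which encodes an RNA-binding protein made in most cells, overlaps Masp2 and lies on the opposite strand. Its 3 probes changed by -0.0033, 0.03 and 0.07, and none was called. On the other side, Srm, the gene of spermidine synthase, changed by -0.16 (SE 0.07, limma adjusted p 0.293). The nearest gene past Masp2 and Tardbp, Gm572, changed by -0.07. Masp2 is made mainly in the liver, and of 5 hepatocyte markers Alb and Apoa1 were not well above background on any array, 2 were so on all arrays (Serpina1a, called at 1.07, and Ttr, a gene of the choroid plexus as well) and Fgb was so on 7. Their part in the values of Masp2 was not tested. Masp1, which encodes a related lectin pathway protease, was also not well above background on any array, so no change is given for it.

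Cfb encodes factor B, whose active fragment is the protease of the alternative pathway C3 convertase. Its probe read 8.41, 7.49, 7.11 and 7.18 in replicates 1 to 4 of 3M and 8.47, 8.42, 8.44 and 8.33 in 29M. The aged arrays were close together, and 3 of the young arrays lay below all of them, but replicate 1 of 3M was on their level. The log2 change was 0.87 (SE 0.25, 95% interval 0.31 to 1.42), and it did not pass the test (limma adjusted p 0.123). Without replicate 1 of 3M the change was 1.16 (limma adjusted p 0.00180), and without this array and replicate 4 of 29M it was 1.23 (limma adjusted p 0.00428). Leaving out any other single array gave no call, with changes of 0.72 (limma adjusted p 0.240, without replicate 3 of 3M) to 0.89. The difference was -0.03 on slide 1, which holds replicate 1 of 3M, against 0.93 and 1.33 on slides 2 and 3. With slide as a fixed block it was 0.73 (limma adjusted p 0.185). C2, the gene next to Cfb and its counterpart in the classical pathway, rose by 0.92 (SE 0.21, limma adjusted p 0.0650) with separate groups.

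**Figure D2:**
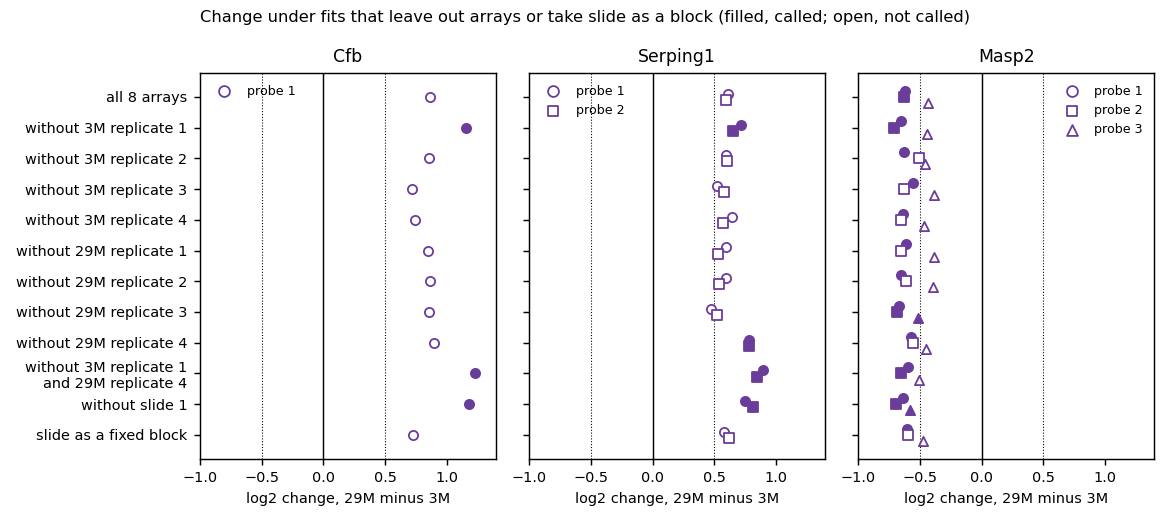
Log2 change (x axis, 29M minus 3M) of the probes of Cfb, Serping1 and Masp2 under fits that leave out arrays or take slide as a block (y axis), with filled symbols where limma called the probe and dotted lines at the fold threshold of 0.5. The change of Cfb is 0.87 with all arrays and 1.16 without replicate 1 of 3M, while the brightest probe of Masp2 (probe 1) is called in every fit shown.

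Serping1, the inhibitor that inactivates the C1 and lectin pathway proteases, showed a difference on both of its probes that fell short of a call. The brighter probe (A_55_P1992889) read 12.40, 12.03, 11.83 and 12.18 in 3M and 12.77, 12.75, 13.14 and 12.22 in 29M. The other probe (A_51_P376238) read 11.82, 11.66, 11.62 and 11.58 in 3M and 12.45, 12.42, 12.49 and 11.70 in 29M. On both probes 3 aged arrays lay above all young arrays, and replicate 4 of 29M lay below the highest young array. The log2 changes were 0.61 (SE 0.19, limma adjusted p 0.150) and 0.60 (SE 0.17, limma adjusted p 0.121), with 95% intervals of 0.19 to 1.04 and 0.22 to 0.97. Without replicate 4 of 29M both changes were 0.78 and both were called (limma adjusted p 0.0745 and 0.00922). They were also called without replicate 1 of 3M, at 0.72 and 0.65. Neither was called without any other single array, and the lowest change of the brighter probe was 0.47 (limma adjusted p 0.213, without replicate 3 of 29M), below the minimum fold. Slide 1 gave a difference of 0.29 on the brighter probe, slide 2 gave 0.73 and slide 3 gave 0.76. A fixed block for the slide put it at 0.58 (limma adjusted p 0.235).

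The arrays of Cfb and Serping1 that lay on the level of the other age were also those nearest to the other age in microglia and in astrocyte markers. Of the 15 microglia markers 13 were higher and 2 lower in 29M, with a median log2 change of 0.28, and 3 were called (Ctss 0.81, Tyrobp 0.78 and Trem2 0.63). All 15 were well above background on every array. Of 8 astrocyte markers 4 were higher and 4 lower in 29M (median log2 change -0.002), and 1 was called (Gfap 0.70). Their scores ran from -0.09 to -0.003 in 3M and from -0.01 to 0.16 in 29M. The highest young array was replicate 1, the lowest aged array replicate 4 and the highest aged array replicate 3. Of 7 markers of meningeal cells and fibroblasts, which also make Serping1, 3 were higher and 4 lower in 29M. None was called, and their median log2 change was -0.01. Their score ran from -0.03 to 0.08 in 3M and from -0.45 to 0.39 in 29M. Its lowest array was replicate 4 of 29M and its highest replicate 3 of 29M, which were also the lowest and the highest aged array on the brighter Serping1 probe. The 4 measured neutrophil and monocyte markers were all higher in 29M (median log2 change 0.54) and none was called, with scores from -0.89 to 0.22 in 3M and from -0.01 to 0.56 in 29M. Of 6 endothelial markers 5 were higher and none was called (median 0.15), and the scores were separate, at -0.15 to -0.03 in 3M and 0.01 to 0.15 in 29M. The part of these cells in the values of Cfb and Serping1 was not tested.

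The other regulators showed no call. Cr1l encodes Crry, the rodent membrane protein that blocks C3 convertases and is related to human complement receptor 1. It read 12.59, 12.41, 12.19 and 12.65 in 3M and 12.52, 12.29, 12.61 and 12.36 in 29M. The aged arrays lay within the range of the young ones. The means differed by -0.01 on the log2 scale (SE 0.12, limma adjusted p 0.968), and the 95% interval of -0.28 to 0.25 lay within the fold threshold on both sides. Cd46, which overlaps it and encodes another membrane cofactor, changed by -0.01 (SE 0.09). Cr2, its neighbour and the gene of complement receptor 2, changed by 0.12 (SE 0.10) on its brighter probe and by 0.21 on the other.

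Cd55 encodes decay-accelerating factor, which takes C3 convertases apart on the cell surface. It read 10.98, 10.85, 10.46 and 11.00 in 3M and 10.56, 10.40, 10.75 and 10.54 in 29M. Of the young arrays 3 lay above all aged arrays, and replicate 3 of 3M lay among them. The log2 change of -0.26 (SE 0.13, 95% interval -0.55 to 0.03) did not pass the test (limma adjusted p 0.351). It had the same sign on slides 1, 2 and 3 (-0.33, -0.44 and -0.18) and in all 20 other fits. Without replicate 3 of 3M it was -0.38 (limma adjusted p 0.146). Cd55b, a close copy of the gene, changed by 0.01 and by -0.30 on its probes, without a call, and as the copies are similar a probe of either may read both.

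Cd59a encodes the membrane protein that stops the assembly of the membrane attack complex. It read 12.36, 12.42, 11.39 and 12.60 in 3M and 12.50, 12.07, 12.26 and 12.21 in 29M. Replicate 3 of 3M was lower than every other array. The SD of 3M was 0.55, and the log2 change of 0.07 (SE 0.24, limma adjusted p 0.914) had a 95% interval of -0.46 to 0.60, which reaches past the fold threshold. Without replicate 3 of 3M the change was -0.20 (limma adjusted p 0.481). That array also had the lowest score of the 6 choroid plexus markers (-0.76, against 0.03 to 0.35 in the other 3M arrays and -0.25 to 0.14 in 29M). The same array was also the lowest of 3M for Cd55 and Cr1l. Replicate 2 of 29M, the lowest aged array in these markers, was the lowest aged array for Cd59a, Cd55 and Cr1l. Its gap in the markers was 0.89 of the range of 29M, past the critical value of Dixon's test. The gap of replicate 3 of 3M was 0.72 of the range of 3M, short of that value. Over all marker lists and both ages no other gap passed it, and about 1 set in 20 would by chance. All 6 choroid plexus markers were well above background on every array, and their part in the values of these genes was not tested. Cd59b, the close copy next to it, changed by -0.14 (SE 0.16).

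Cfi encodes factor I, the protease that cuts C3b and C4b into inactive forms. Its probe was not well above background on any of the 8 arrays, with values from 5.55 to 5.63 in 3M and from 5.64 to 5.79 in 29M, so no fold is given. The groups of this probe were separate by 0.0021, and it is the 1 probe counted as higher without overlap.

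The receptors of the fragments C3a and C5a are carried by microglia in the brain. C3ar1 read 7.04, 7.07, 7.16 and 7.03 in 3M and 7.26, 7.22, 7.02 and 6.99 in 29M. The aged arrays lay on both sides of the young ones. Between the means the log2 change was 0.04 (SE 0.09 and adjusted p 0.843 by limma), with a 95% interval of -0.15 to 0.24 that lay within the fold threshold. The lowest aged arrays were replicates 3 and 4, both on slide 1. In the microglia markers, these were the array with the highest score of all 8 and the aged array with the lowest score, respectively.

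C5ar1 read 6.33, 5.75, 6.34 and 6.01 in 3M and 6.33, 6.22, 6.37 and 6.47 in 29M. It was well above background on all 4 aged arrays but on 2 of the young ones (replicates 3 and 4). The groups overlapped, and the log2 change of 0.24 (SE 0.14, 95% interval -0.06 to 0.55) did not pass the test (limma adjusted p 0.409). It ran from 0.12 (without replicate 2 of 3M) to 0.52 (processed signals with 75th percentile scaling) over 20 other fits, none of which called it. C5ar2, the gene of the other C5a receptor and the neighbour of C5ar1, changed by 0.31 (SE 0.09) and 0.35 (SE 0.10) on its probes. Both missed the threshold (limma adjusted p 0.128 and 0.113), although on the brighter of them the aged arrays lay above all young arrays.

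**Figure D3:**
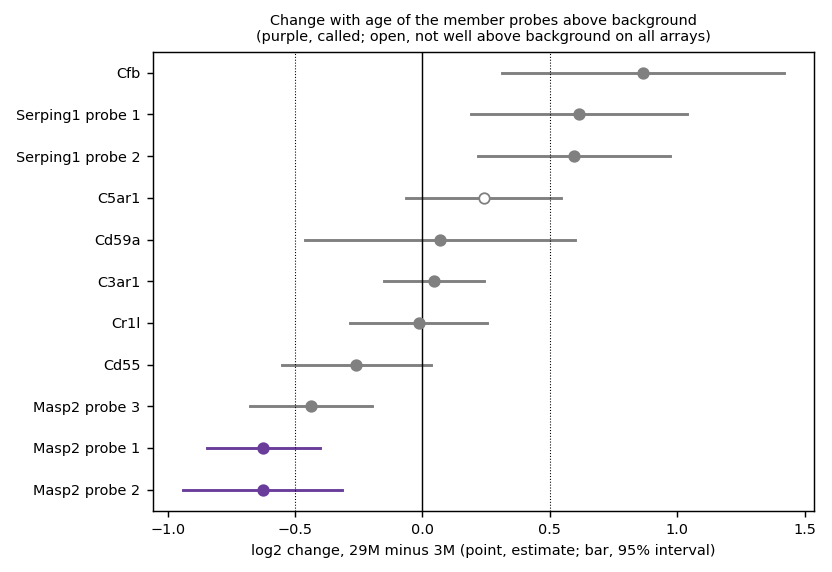
Log2 change from 3M to 29M (x axis) of the member probes that were well above background on any array (y axis; Cfi was not) with its 95% interval from limma's moderated standard error, with dotted lines at the fold threshold of 0.5 in both directions. Purple marks called probes and open points those not well above background on all 8 arrays. The intervals of C3ar1 (-0.15 to 0.24) and Cr1l (-0.28 to 0.25) stay within the dotted lines, and those of all 3 Masp2 probes lie below 0.

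The rest of the pathway gives the frame for these values. Of 50 other complement genes on the list 47 had a probe, 31 with a higher and 16 with a lower value in 29M, and their median log2 change was 0.12. Of these 47 limma called 8 as higher and 1 as lower, where 1.46% and 0.709% of all tested genes were called on the same kind of probe. The higher ones were C3 (2.32) and C4b (2.30), the central components, Itgax (1.89), a subunit of a receptor for cleaved C3, C2 (0.92), C1qa (0.84) and C1qb (0.55), chains of the recognition molecule C1q, and C1ra (0.61) and C1s2 (0.60), proteases of C1. C4b, C1ra and C1s2 each have a close copy, so that a probe may read both. The probes of C1s2 opposed each other: its other probe was at -0.32 (SE 0.12, limma adjusted p 0.228). The other probes of C3 (1.16) and C1ra (0.65) were called higher too. Over 20 other fits the calls of C3, C4b, Itgax and C1qa held in all, those of C1qb in 13, of C2 in 12, of C1ra in 11 and of C1s2 in 10.

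The lower gene was Cfp, which encodes properdin, the stabiliser of the alternative pathway convertase. Its log2 change of -0.50 (SE 0.10, limma adjusted p 0.0435) was just past the fold threshold, and the call held in 12 of 20 other fits. Without replicate 1 of 3M and replicate 4 of 29M Cfp was not called, and 12 of the 47 genes were called higher. Whether the members differ from the other complement genes in their change was not tested.

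**Figure D4:**
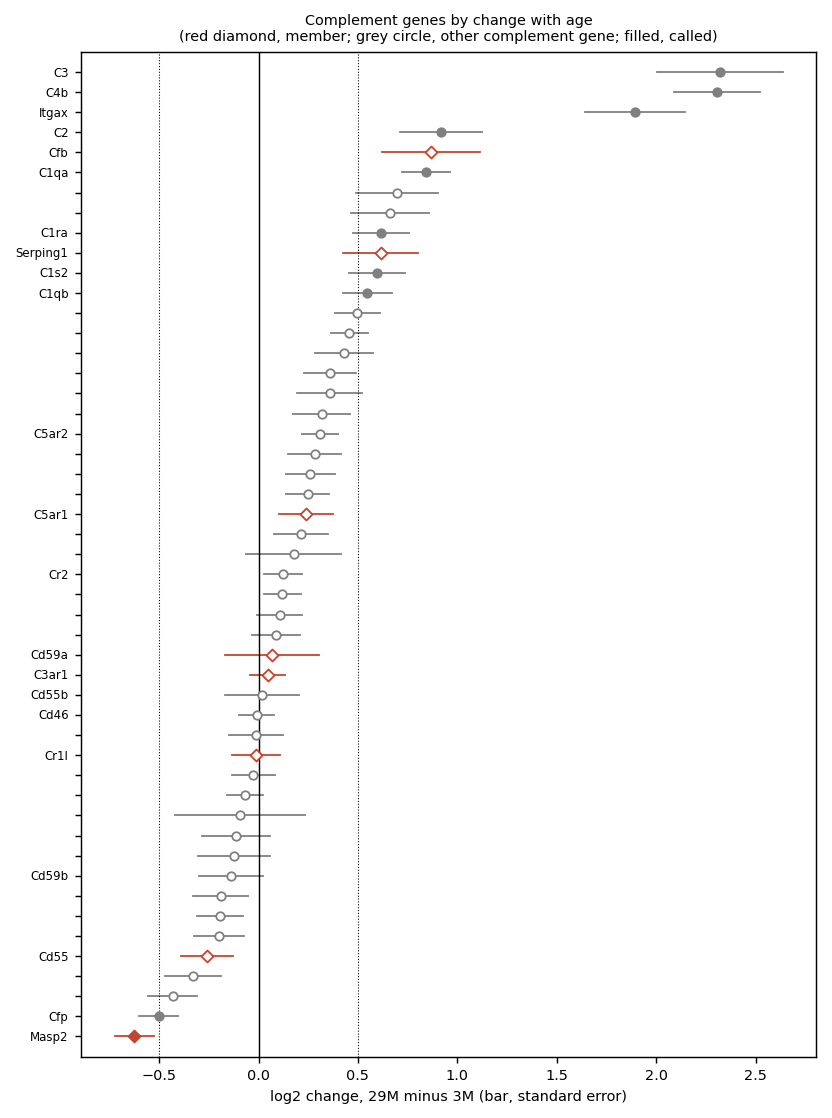
Log2 change from 3M to 29M (x axis, bar for the standard error) of the members (red diamonds) and the other complement genes (grey circles; 1 of the 47 and the genes well above background on no array, such as Cfi and Masp1, are not drawn), ordered by change along the y axis, each on its probe with the highest mean. Filled symbols were called, and only genes named in the text are labelled. Masp2 (-0.63) is the lowest of all genes shown and C3 (2.32) the highest, while Cr1l, C3ar1 and Cd59a lie near 0.

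For each member well above background on all arrays, the most similar genes over the 8 arrays were looked up by Pearson's r among 15921 genes, as a description that includes the age difference. For Masp2 they were Eme2 and Pak6 (r 0.99 for both), with log2 changes of -0.48 and -0.25. For Cfb they were Bcl2a1c and H2-K1 (0.99 and 0.99), both of gene families with close copies, with changes of 0.86 and 0.74 and no call. For Serping1 they were Ccl6 (0.99), a chemokine, and Txlnb (0.97). Those of Cd55 were Col4a4 and Ano2 (0.99 and 0.99), and those of Cd59a were Marveld3 and Rdh5 (0.99 and 0.98). C3ar1 was followed by Cipc and Klhl24 (0.97 and 0.97) and Cr1l by Cmtm8 and Pyroxd2 (0.96 and 0.95).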

How the data were processed

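Hippocampal RNA of 4 mice at 3 months (3M) and 4 at 29 months (29M) was labelled with Cy3 and hybridised to 1 array each. The authors deposited scanner intensities on a linear scale, which per the file headers came from Agilent Feature Extraction 10.7.3.1 and were not normalized between arrays. The software and the array design in the headers differ from those in the study's methods, and the headers were followed. A further deposited table of the whole series was not used, because its columns equalled local background values and were in another array order than the sample files.

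Groups came from the sample titles. Control spots and outlier spots (127 to 190 per array) were removed. The median spot intensity was normalized with the variance stabilising model of the study's methods, fitted in R 4.3.3 by least trimmed squares (quantile 0.9, 7 iterations), a rewritten version in place of the package. The fitted offsets were small (-5.05 to 3.85 scanner units), so that a value is close to a log2 intensity. Background was not subtracted, which understates the change of dim probes. Spots of 1 probe were averaged. In limma 3.58.1, a linear model with an age term and eBayes was fitted to the 39408 probes that kept 3 or more usable arrays in both groups, and p-values were adjusted by Benjamini-Hochberg over all of them. The thresholds for a call followed the study's methods (adjusted p below 0.1, log2 change of 0.5 or more in either direction, which is 1.41-fold). On simulated data for this comparison (39429 probes, 200 of them changed), 89.0% were recovered, with 6.81% false among the calls. This share was taken over all 200 probes together. Recovery at sizes like those of Masp2, Serping1, Cfb or Cfp was not tested, and the 89.0% should not be read for them.

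Gene symbols came from the accession in the files, matched to RefSeq genes of GRCm38.p6 (26055 of 39429 probes). The arrays were designed on mm9, so no probe positions are given, and probe sequences were not used here. A gene with several probes is represented by the probe with the highest mean, and the other probes of members and of called complement genes are given as well. The members and gene lists were chosen with earlier results of these data known. Named genes are all members, called genes of the complement list and close relatives of the members, the 2 genes most correlated with each member over the arrays, and the genes next to a called member. Cd55b, Tardbp and the single marker genes named lie outside this rule and were chosen after their values were seen. 1 close relative is not reported here. Levels were compared between probes only to choose the probe that represents a gene, and never between genes. The alternatives comprised other normalizations, spot and probe filters, slide or replicate number as a block, other variance priors and thresholds, and leaving out arrays. The number of arrays limits the precision.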

Additional observations from a re-analysis of the deposited data

Results flagged for a closer look

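For every member probe and age, the gap between the most distant array and its nearest neighbour was taken as a share of the range over the 4 arrays. Of the 24 sets of 4 arrays examined, 1 had a gap past the critical value for 4 values, and about 1 set in 20 would by chance. On probe A_51_P376238 of Serping1, replicate 4 of 29M read 11.70 where the other aged arrays read 12.42 to 12.49, a gap of 0.903 of the range. On the brighter probe of Serping1 this array was also the lowest of 29M, at 12.22 against 12.75 to 13.14. It was also the lowest 29M array in the microglia, astrocyte, endothelial, and meningeal and fibroblast markers. The same held for the hippocampal principal cell and hepatocyte markers, while in the neuron markers it was the highest. What sets this array apart was not tested.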

How the results depend on the processing

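The direction of Masp2, Cfb, Serping1, Cd55 and C5ar1 was kept in all other fits, and that of the rest was not. For Cfi, which has no measured change since all its values are near background, the difference turned sign when processed signals were scaled to their 75th percentile (-0.063). Leaving out 1 array gave -0.20 (no replicate 3 of 3M) to 0.21 for Cd59a, which was also -0.012 with no replicate 1 of 29M, -0.00068 (no replicate 1 of 29M) to 0.090 for C3ar1, and -0.10 to 0.053 for Cr1l, which was above 0 with no replicate 1 or 4 of 3M and no replicate 2 or 4 of 29M. Without both replicate 1 of 3M and replicate 4 of 29M, Cr1l was at 0.072. None of these values was called.

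Of the member probes, 0 were called higher with all arrays, 1 (of Serping1) when only probes well above background in a group were tested, and 3 (Cfb and both of Serping1) with array weights, without both replicate 1 of 3M and replicate 4 of 29M and without slide 1, the last 2 settings chosen after seeing the data. Leaving out 1 array gave 0 to 3 (3 without replicate 1 of 3M, 2 without replicate 4 of 29M). The number called lower, 2 with all arrays, was 1 with processed signals scaled to the 75th percentile, with slide as a fixed block and at an adjusted p under 0.05, and 1 to 3 when 1 array was left out (1 without replicates 2, 3 or 4 of 3M or replicates 1, 2 or 4 of 29M). Of the other complement genes, 8 were called higher, and 4 at an adjusted p under 0.05, with 4 to 11 when 1 array was left out (4 without replicates 2 or 3 of 3M or replicates 1 or 2 of 29M). Cfp, the 1 called lower, became 0 with processed signals under either normalization and without both replicate 1 of 3M and replicate 4 of 29M, and 0 to 1 when 1 array was left out (0 without replicates 2 or 3 of 3M or replicates 1 or 4 of 29M).

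The arrays of 1 replicate number deviated from their group means with correlations from -0.26 to 0.22. Of the 8 arrays, 2 correlated best with their own number in the other group. These few values cannot show whether arrays of 1 number shared any handling. With the replicate number as a block, 1 member probe was called lower, and of the other complement genes 4 were called higher and 0 lower. The cause of these changes was not tested. Cfi and C5ar1 are limited by signal near background.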
